A study of Mus musculus with 9 samples.

Results

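Expression of 10 genes of the cGAS-STING pathway and of nucleic acid sensing was measured by RNA-seq in mouse heart. The genes were Cgas, Sting1, Tbk1, Ikbke, Irf3, Irf7, Trex1, Ifi204, Samhd1 and Mavs, chosen by name and matched to gene IDs by symbol (Sting1 is also called Tmem173, and Cgas is also called Mb21d1). The choice was made with earlier results of these data known. All 10 were among the 16873 genes listed for every library, and all 10 were among the 12485 genes tested. There were 9 libraries in 3 groups of 3: WT mice given saline (WT saline), WT mice given doxorubicin (WT DOX) and Sting-/- mice given doxorubicin (Sting-/- DOX). Doxorubicin is an anthracycline chemotherapy drug that damages the heart, and the series describes a low-dose, chronic model of that damage. The labels name no cell type or promoter that limits the loss of Sting in the Sting-/- mice. Sting-/- mice given saline were not analysed here, so an effect of doxorubicin could not be compared between genotypes. Allele, strain, age, sex, dose and schedule are not given in the sources used here, and the labels do not say whether each library is a different mouse, so the p-values cover only variation among these libraries, which may be technical.

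cGAS is an enzyme that binds double-stranded DNA in the cytosol and makes the cyclic dinucleotide cGAMP. cGAMP binds STING on the endoplasmic reticulum, STING moves to the Golgi, and the kinase TBK1, with its relative IKKε (Ikbke), phosphorylates the transcription factor IRF3, which turns on type I interferon and other genes. Interferon in turn raises many sensors and IRF7, a second transcription factor of the family. The exonuclease TREX1 removes cytosolic DNA, SAMHD1 lowers the pool of deoxynucleotides, IFI204 is a DNA sensor of the PYHIN family, and MAVS is the adaptor through which RNA sensors reach the same kinases. In heart tissue, STING signalling has been studied in endothelial cells and macrophages as well as in cardiomyocytes.

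Values are FPKM, fragment counts scaled to transcript length and library size, so levels can be set side by side between genes. Differences were taken after adding 1 to each FPKM and converting to log2, which shrinks the change of low genes, and a gene passed where its adjusted p in limma (Benjamini-Hochberg over all genes tested) was under 0.05. The depth of the libraries was estimated from the steps of low values: WT saline libraries held about 11300000 to 11600000 fragments, WT DOX libraries 12900000 to 13450000 and Sting-/- DOX libraries 8050000 to 8450000. Within a group, the libraries correlated at 0.995 to 0.997 over genes. All 15 cardiomyocyte markers were detected in every library, as the heart label requires, but their summed level was 82931 to 83888 FPKM in WT saline, against 54272 to 57673 for WT DOX and 11649 to 12201 for Sting-/- DOX. The summed level of 18 macrophage and monocyte markers was 539 to 595 FPKM, 1798 to 1953 and 3397 to 3548 in the same order, although 12 of these markers rose and 5 fell in Sting-/- DOX against WT DOX (9 and 6 after median-ratio scaling). The 5 were Ccr2 (30.6 to 17.7 FPKM), Itgam (30.4 to 9.52), Fcgr1 (29.7 to 13.6), Mrc1 and Cd163, named after their values were seen, while Lyz2 alone went from 685 to 1202 FPKM. The summed level of 18 endothelial markers was 1872 to 1984, 1589 to 1801 and 7989 to 8525, and that of 10 fibroblast markers 624 to 635, 1244 to 1286 and 7895 to 8374. The summed level of the 7 neutrophil markers measured was 6.46 to 7.25 FPKM, 225 to 294 and 84.7 to 100.4, with Mmp8 at 0 in at least 1 saline library, and that of 12 lymphocyte markers 6.17 to 7.72, 13.2 to 25.8 and 14.8 to 16.1, with Cd3e and Ms4a1 at 0 in at least 1 saline library and Cd3e at 0 in at least 1 Sting-/- DOX library. The ranges of the lymphocyte sums overlapped between the doxorubicin groups, and those of the other 5 sums did not. The part of these sums in the results that follow was not tested. In bulk tissue, fewer cells of a type and less RNA per cell cannot be told apart, and a difference in the piece of tissue taken from Sting-/- hearts cannot be told apart from genotype here.

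Sting1, the adaptor itself, checked the genotype label. It was at 5.10, 5.43 and 5.93 FPKM in the WT saline libraries, 17.49, 17.96 and 17.76 in WT DOX, and 0.06, 0 and 0 in Sting-/- DOX. The 3 groups did not overlap, and the Sting-/- DOX libraries held about 0 to 1 fragments of Sting1 against about 494 to 502 in WT DOX. In WT mice Sting1 was 3.23-fold higher with doxorubicin, a log2 difference of 1.53 (SE 0.0679, adjusted p = 2.01e-09, limma). The log2 difference of Sting-/- DOX from WT DOX was -4.20 (adjusted p = 1.25e-13, limma), a value set largely by the pseudocount because the gene is listed at 0 in 2 of the 3 libraries.

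In WT hearts, 9 of the 10 genes rose with doxorubicin and Mavs fell, although with median-ratio scaling or quantile normalization 7 rose, because Tbk1 and Irf3 no longer passed and Irf3 turned to -0.04 with median-ratio scaling. Over all genes tested, 45.3% were called higher and 21.5% lower in this comparison, 66.7% in either direction, all as deposited. Of all the genes called, 67.8% were higher as deposited, 40.9% after median-ratio scaling and 39.2% after quantile normalization. The ranges of the groups did not overlap for any of the 10 genes, as for 71.7% of all genes tested. The median log2 difference of the 10 genes was 1.04, against 0.13 for all genes tested. Because the genes were chosen with earlier results known, counts and medians of the 10 are descriptions and not independent support. The 2 largest log2 rises among the 10 were those of Ifi204 and Ikbke.

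Between the doxorubicin groups the genes divided. Irf3, Ikbke and Tbk1 were higher in Sting-/- DOX than in WT DOX, 6 genes were lower and Cgas did not pass, with Tbk1 turning to -0.14 under median-ratio scaling and -0.08 under quantile normalization. Of all genes tested, 54.1% were called higher and 29.7% lower (83.8% in either direction), and 84.8% had ranges that did not overlap, against 9 of the 10 genes. The median of the 10 genes was -0.41 on the log2 scale, against 0.25 for all genes tested. Sting1 was the lowest of the 10, so this median does not depend on its exact value. Set against WT saline, Sting-/- DOX libraries had 6 genes higher, 2 lower and 2 that did not pass, or 4 higher and 4 lower after median-ratio scaling and 4 and 3 after quantile normalization, where Tbk1, Ifi204, Trex1 and Irf7 turned below 0. In that comparison 63.0% of all genes tested were called higher, 25.9% lower and 88.9% in either direction, and 89.2% had separate ranges, against 8 of the 10 genes. Of all the genes called there, 70.9% were higher as deposited, 48.5% after median-ratio scaling and 51.3% after quantile normalization. The comparisons share groups of libraries, so they are not independent of each other.

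**Figure D1:**
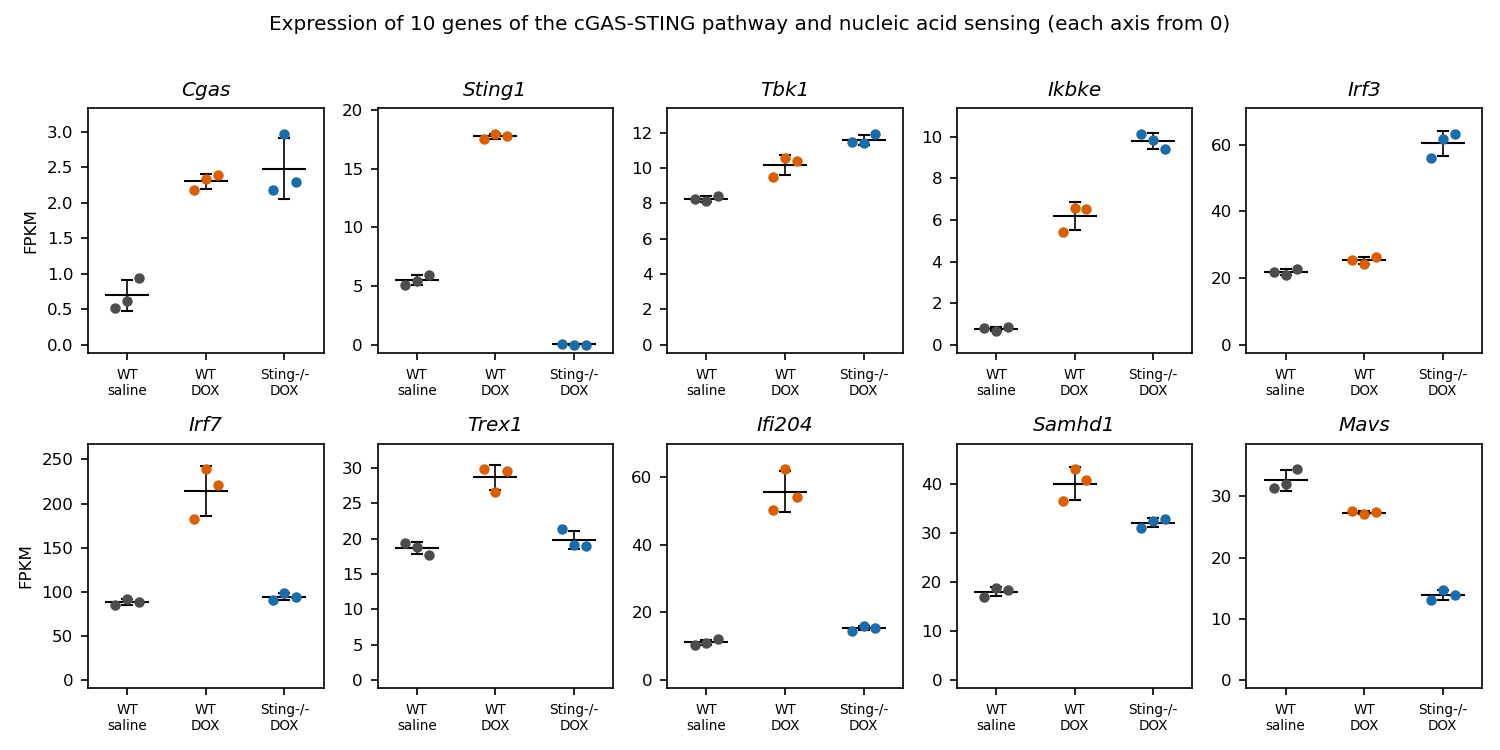
FPKM of the 10 genes in each of the 9 libraries, 1 panel per gene with each y axis from 0; points are libraries, lines the group mean and error bars the SD of 3 libraries. Ifi204 and Irf7 stand highest in WT DOX, Irf3 and Ikbke highest in Sting-/- DOX, and Mavs lowest in Sting-/- DOX.

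Cgas, the DNA sensor, had the lowest mean of the 10 genes in both WT groups. It was at 0.52, 0.62 and 0.94 FPKM in WT saline, 2.18, 2.33 and 2.39 in WT DOX, and 2.18, 2.97 and 2.29 in Sting-/- DOX. The saline libraries were all below the doxorubicin libraries, and the ranges of the 2 doxorubicin groups overlapped. Cgas was 3.32-fold higher in WT DOX than in saline (log2 difference 0.97, SE 0.113, adjusted p = 1.09e-05, limma). The log2 difference of Sting-/- DOX from WT DOX was 0.07 (95% interval -0.18 to 0.32, adjusted p = 0.572, limma). The difference was -0.17 with median-ratio scaling (adjusted p = 0.2, limma) and -0.28 with quantile normalization (adjusted p = 0.0395, limma). Saline libraries held only about 24 to 43 fragments of Cgas, against 119 to 127 for WT DOX and 75 to 99 for Sting-/- DOX. The gene passed the filter on low values through the doxorubicin groups.

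The kinases Tbk1 and Ikbke, which phosphorylate IRF3 and IRF7, moved by different amounts. Tbk1 was at 8.22, 8.12 and 8.43 FPKM in WT saline, 9.51, 10.6 and 10.4 in WT DOX, and 11.5, 11.4 and 11.9 in Sting-/- DOX. Ikbke was at 0.78, 0.64 and 0.83 FPKM in WT saline, 5.44, 6.60 and 6.55 in WT DOX, and 10.2, 9.84 and 9.41 in Sting-/- DOX. For both kinases the 3 groups were separate and in the same order. The rise of Tbk1 in WT mice was 1.23-fold (log2 difference 0.27, SE 0.0543, adjusted p = 9.0e-04, limma), but it was 0.04 under both median-ratio scaling and quantile normalization, neither of which passed. Its difference between Sting-/- DOX and WT DOX was 0.18 (adjusted p = 0.00943, limma) as deposited, -0.14 after median-ratio scaling (adjusted p = 0.0315) and -0.08 after quantile normalization, so the direction depends on the scaling. Ikbke was 8.26-fold higher in WT DOX than in saline (log2 difference 2.04, SE 0.0803, adjusted p = 7.15e-10, limma) and 1.58-fold higher in Sting-/- DOX than in WT DOX (0.59, SE 0.0803, adjusted p = 2.28e-05, limma). The latter difference was smaller, though still passing, at 0.28 after median-ratio scaling and 0.32 after quantile normalization. Ikbke was itself near 0 in saline, at about 24 to 30 fragments a library, and passed the filter on low values through the doxorubicin groups.

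Because the 2 kinases act on the same targets, their ratio within a library was computed, a value that multiplying a library by 1 factor leaves unchanged. The ratio of Ikbke to Tbk1 was 0.0907 ± 0.0105 (SD, n = 3) in WT saline, 0.609 ± 0.0317 in WT DOX and 0.845 ± 0.0502 in Sting-/- DOX. The groups did not overlap, and each of the 3 differences in log2 ratio, 2.75, 0.47 and 3.22, reached the smallest p that 3 against 3 libraries allow (p = 0.1, exact permutation test, two-sided; 0.1 after Benjamini-Hochberg adjustment over 6 tests). Because Ikbke passed the filter on low values through the doxorubicin groups, the differences of this ratio from saline are descriptions and not independent support. Tbk1 was the more abundant of the pair in all 9 libraries.

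The transcription factors Irf3 and Irf7 had opposite orders in the 2 doxorubicin groups. Irf3, the constitutive factor that STING signalling activates by phosphorylation, was at 21.97, 20.79 and 22.70 FPKM in WT saline, 25.4, 24.3 and 26.3 in WT DOX, and 56.1, 61.9 and 63.3 in Sting-/- DOX. Irf7, the interferon-inducible factor, was at 85.3, 92.1 and 87.8 FPKM in WT saline, 183, 239 and 221 in WT DOX, and 90.8, 98.2 and 94.3 in Sting-/- DOX. Irf3 was thus high in all Sting-/- DOX libraries, and Irf7 was high in all WT DOX libraries, where library 1 was the lowest. Irf3 differed between WT DOX and saline by 0.21 (SE 0.0552, adjusted p = 0.00558, limma), by -0.04 after median-ratio scaling and by 0.02 after quantile normalization. It was 2.38-fold higher in Sting-/- DOX than in WT DOX (log2 difference 1.22, SE 0.0552, adjusted p = 7.66e-10, limma). Irf3 shares 2.22% of its 31-base stretches with Bcl2l12, which rose from 10.5 to 16.9 FPKM in the same comparison (0.63, adjusted p = 2.52e-05, limma; 0.31 and 0.41 after the 2 scalings), and how reads were split between them is not given in the sources used here.

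Irf7 was 2.42-fold higher in WT DOX than in saline (log2 difference 1.26, SE 0.0784, adjusted p = 4.4e-08, limma) and lower in Sting-/- DOX than in WT DOX by 1.17 on the log2 scale (adjusted p = 3.15e-08, limma). Against saline, Irf7 in Sting-/- DOX differed by 0.09 (95% interval -0.08 to 0.27, adjusted p = 0.271, limma). The difference was -0.50 with median-ratio scaling (adjusted p = 5.68e-05, limma) and -0.06 with quantile normalization (adjusted p = 0.46, limma). The ratio of Irf7 to Irf3 was 4.06 ± 0.319 (SD, n = 3) in WT saline, 8.47 ± 1.31 in WT DOX and 1.56 ± 0.0674 in Sting-/- DOX, with no overlap between groups. The log2 differences of this ratio, 1.05, -2.43 and -1.37, each reached the smallest possible p (p = 0.1, exact permutation test, two-sided, and 0.1 after adjustment over the same 6 tests). Between the doxorubicin groups that p was fixed by the single genes, because Irf3 was higher and Irf7 lower without overlap, so it adds no support.

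**Figure D2:**
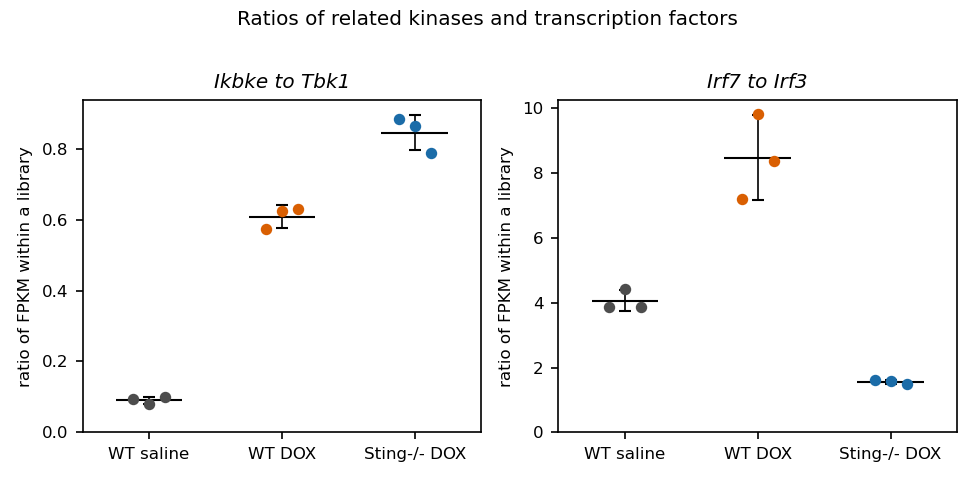
Ratios of Ikbke to Tbk1 and of Irf7 to Irf3 in each library, with the y axis from 0; points are libraries, lines the group mean and error bars the SD of 3 libraries. The Ikbke ratio is lowest in WT saline and highest in Sting-/- DOX, and the Irf7 ratio is highest in WT DOX and lowest in Sting-/- DOX.

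The promoters of Irf7 and Samhd1 are shown because both genes rose in WT DOX and were lower in Sting-/- DOX than in WT DOX. Trex1, Ifi204 and Sting1 did so too, and their promoters are not shown. The sequences are the 250 bases before the annotated start in RefSeq's GRCm38.p6 table, 5' to 3' on the strand of the gene, and the files themselves use GRCm39. Capitals mark a match to TTCNNNGAA, the core of the gamma-activated site. The search read both strands over 300 bases (250 before to 50 after the start), for this motif and for the core of the interferon-stimulated response element (ISRE), which is GAAA, any 2 bases and GAAA again, bound by IRF factors. Irf7 is on the minus strand at chr7:141266425-141266674 and Samhd1 on the minus strand at chr2:157135097-157135346.
Irf7: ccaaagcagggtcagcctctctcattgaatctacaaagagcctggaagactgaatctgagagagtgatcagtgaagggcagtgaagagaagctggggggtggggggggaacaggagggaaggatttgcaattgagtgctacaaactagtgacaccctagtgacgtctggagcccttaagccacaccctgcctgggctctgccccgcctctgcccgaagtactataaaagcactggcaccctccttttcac
Samhd1: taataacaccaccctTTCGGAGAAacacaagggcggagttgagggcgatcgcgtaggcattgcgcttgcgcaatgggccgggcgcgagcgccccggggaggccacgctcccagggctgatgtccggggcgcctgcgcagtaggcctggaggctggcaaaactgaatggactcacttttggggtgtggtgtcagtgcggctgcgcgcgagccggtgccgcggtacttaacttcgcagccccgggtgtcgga
Of the 10 genes, 8 had a promoter searched here, in 9 windows. Sting1 and Ifi204, which both rose in WT DOX, were not searched, so the counts that follow do not cover them. None of the 8 held the ISRE core, against 3.44% of all 32851 promoters of the same length and 3.19% of the 12810 promoters of genes tested. Samhd1 held the gamma-activated site core with its first base at -235, against 8.3% of all promoters and 6.89% of those of genes tested. A match is a description of letters, and its absence says only that these letters are not in this window.

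The DNA exonuclease Trex1 and the deoxynucleotide hydrolase Samhd1 both rose in WT DOX. Trex1 was at 19.4, 18.9 and 17.7 FPKM in WT saline, 29.9, 26.6 and 29.6 in WT DOX, and 21.3, 19.1 and 19.0 in Sting-/- DOX. Samhd1 was at 17.0, 18.9 and 18.3 FPKM in WT saline, 36.5, 43.2 and 40.9 in WT DOX, and 31.1, 32.5 and 33.0 in Sting-/- DOX. The WT DOX libraries were the highest for both, and only Samhd1 was above saline in every Sting-/- DOX library. Trex1 was 1.54-fold higher in WT DOX than in saline (log2 difference 0.59, SE 0.0619, adjusted p = 4.33e-06, limma) and lower in Sting-/- DOX than in WT DOX by 0.51 (adjusted p = 7.71e-06, limma). After the 2 scalings these Trex1 differences were 0.35 and 0.40, and -0.84 and -0.70. Against saline the Trex1 difference in Sting-/- DOX was 0.08 (adjusted p = 0.234, limma), and it was -0.49 after median-ratio scaling and -0.31 after quantile normalization, both passing. The Trex1 values are uncertain because 97.6% of its 31-base stretches also lie in Atrip transcripts. Atrip was at 3.84, 3.96 and 4.53 FPKM on average in WT saline, WT DOX and Sting-/- DOX and did not pass in any comparison as deposited. For Sting-/- DOX against saline, Atrip passed as lower after median-ratio scaling (-0.28) and quantile normalization (-0.37), and as higher with TPM scaling (0.25). Samhd1 was 2.22-fold higher in WT DOX than in saline (1.11, SE 0.0625, adjusted p = 1.79e-08, limma), lower in Sting-/- DOX than in WT DOX by 0.31 (adjusted p = 6.09e-04, limma), and 0.80 higher in Sting-/- DOX than in saline (adjusted p = 9.34e-08, limma). After median-ratio scaling and quantile normalization, in that order, the Samhd1 difference from WT DOX was -0.64 and -0.44 and that from saline 0.23 and 0.46, all passing.

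Mavs, the adaptor of the RNA sensors RIG-I and MDA5, was the 1 gene of the 10 that fell in WT DOX. It was at 31.3, 32.0 and 34.5 FPKM in WT saline, 27.5, 27.0 and 27.4 in WT DOX, and 13.1, 14.6 and 13.9 in Sting-/- DOX. The groups were separate and fell in that order. The log2 difference was -0.25 (SE 0.0523, adjusted p = 0.00133, limma) for WT DOX against saline and -0.93 (SE 0.0523, adjusted p = 5.7e-09, limma) for Sting-/- DOX against WT DOX. The first of these was -0.49 after median-ratio scaling and -0.41 after quantile normalization. The level in Sting-/- DOX was 0.507 of that in WT DOX, and no part of its transcripts was shared with another gene at 31 bases.

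Ifi204, the IFI16-like DNA sensor of the PYHIN family, had the largest rise among the 10 genes in WT hearts on the log2(FPKM + 1) scale, while Ikbke had the larger ratio of means. It was at 10.42, 11.02 and 11.99 FPKM in WT saline, 50.4, 62.4 and 54.3 in WT DOX, and 14.6, 15.8 and 15.3 in Sting-/- DOX. The WT DOX libraries were far above all others, and the Sting-/- DOX libraries were above every saline library. Ifi204 was 5.0-fold higher in WT DOX than in saline (log2 difference 2.22, SE 0.0752, adjusted p = 2.18e-10, limma) and lower in Sting-/- DOX than in WT DOX by 1.80 (adjusted p = 3.69e-10, limma). Against saline it was 0.42 higher in Sting-/- DOX (adjusted p = 1.89e-04, limma), but -0.13 after median-ratio scaling and -0.03 after quantile normalization.

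The PYHIN family is a cluster of sensor genes with near-identical copies, and 46% of the 31-base stretches of Ifi204 lie in other genes, most in Ifi211, Mndal and Ifi207, so counts of single members are uncertain. Of the 13 family genes in the files, 11 were tested, and 10 of them rose in WT DOX, where 45.3% of all genes tested rose, while Ifi203 did not pass (0.06, adjusted p = 0.443, limma). The rise of Mndal (0.24) ended at -0.01 with median-ratio scaling and at 0.06 with quantile normalization, and Ifi203 was at -0.18 with median-ratio scaling (adjusted p = 0.032, limma). In Sting-/- DOX against WT DOX, 8 of the 11 fell, beside 29.7% of all genes tested, Ifi203 and Mndal rose, and Aim2, an inflammasome DNA sensor, did not pass (0.19, adjusted p = 0.114, limma). Both scalings gave 2 higher and 8 lower as well.

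Ifi203 was at 22.7, 27.5 and 25.5 FPKM in WT saline, 24.2, 28.5 and 26.5 in WT DOX, and 74.6, 74.6 and 76.3 in Sting-/- DOX. Mndal was at 27.2, 35.8 and 31.9 FPKM in WT saline, 34.2, 40.5 and 37.3 in WT DOX, and 104.4, 106 and 103 in Sting-/- DOX. In both genes every Sting-/- DOX library was above every WT library. Ifi211 was at 7.93, 10.7 and 10.1 FPKM in WT saline, 48.8, 53.9 and 50.9 in WT DOX, and 16.1, 15.3 and 19.9 in Sting-/- DOX, so that every WT DOX library was above all others. The log2 difference of Sting-/- DOX from WT DOX was 1.48 for Ifi203 (adjusted p = 1.2e-09), 1.47 for Mndal (adjusted p = 7.43e-09) and -1.54 for Ifi211 (adjusted p = 4.32e-08, all limma).

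**Figure D3:**
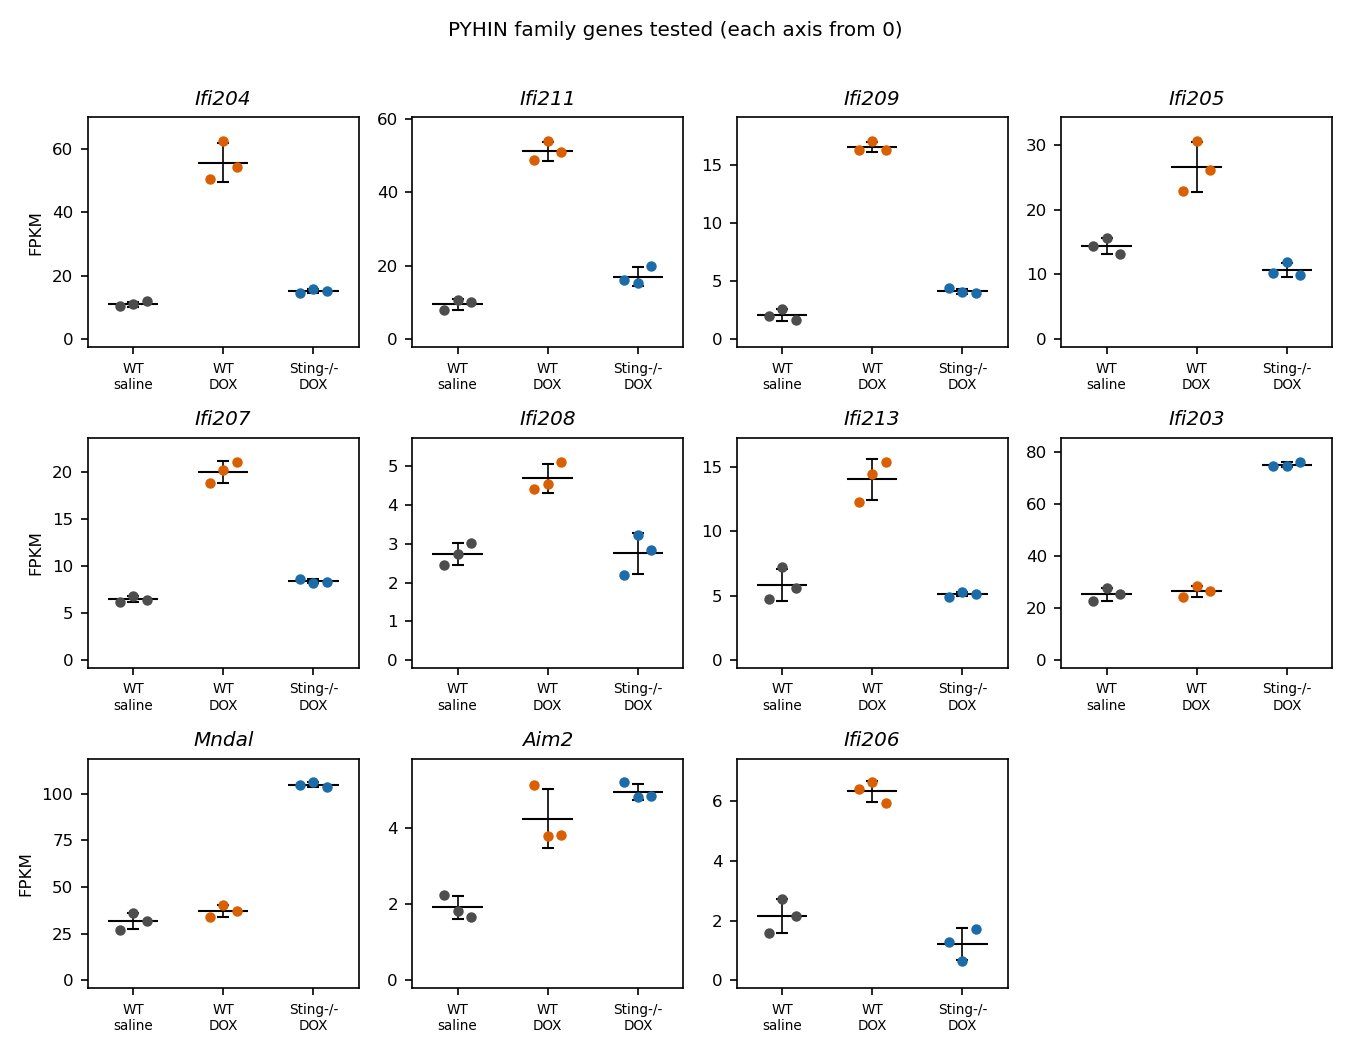
FPKM of the 11 PYHIN family genes tested in each of the 9 libraries, each y axis from 0; points are libraries, lines the group mean and error bars the SD of 3 libraries. Ifi203 and Mndal are highest in Sting-/- DOX, and Aim2 is at a similar level in both doxorubicin groups.

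The promoters of these 3 genes are shown because Ifi203 and Mndal rose between the doxorubicin groups, where Ifi211 and most of the family fell. Of their 31-base stretches, 78.9% in Ifi211, 42.8% in Mndal and 29.3% in Ifi203 also lie in other genes, with Ifi211 and Mndal sharing some. How reads were split between these genes is not given in the sources used here. All 3 are on the minus strand of chromosome 1 in GRCm38.p6 (RefSeq), printed as the 250 bases before the start, with the ISRE core in capitals: Ifi211 at chr1:173913047-173913296, Ifi203 at chr1:173942493-173942742 and Mndal at chr1:173880188-173880437.
Ifi211: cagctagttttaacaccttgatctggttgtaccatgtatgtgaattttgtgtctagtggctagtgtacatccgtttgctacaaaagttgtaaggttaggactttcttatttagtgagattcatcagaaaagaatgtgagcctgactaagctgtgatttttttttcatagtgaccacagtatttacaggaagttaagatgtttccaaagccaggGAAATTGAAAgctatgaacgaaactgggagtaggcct
Ifi203: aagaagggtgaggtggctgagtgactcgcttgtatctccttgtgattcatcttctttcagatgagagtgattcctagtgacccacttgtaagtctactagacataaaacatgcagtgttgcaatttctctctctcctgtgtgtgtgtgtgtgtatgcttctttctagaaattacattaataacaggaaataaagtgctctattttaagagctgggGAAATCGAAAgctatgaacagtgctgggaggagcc
Mndal: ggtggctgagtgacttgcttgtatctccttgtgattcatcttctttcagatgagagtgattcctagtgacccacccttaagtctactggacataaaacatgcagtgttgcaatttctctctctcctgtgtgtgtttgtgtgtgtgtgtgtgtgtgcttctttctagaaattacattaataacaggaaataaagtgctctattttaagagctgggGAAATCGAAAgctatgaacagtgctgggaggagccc
The core started at -37 in Ifi211, -35 in Ifi203 and -36 in Mndal, so all 3 hold a match near the same place. Any part of this match in the differences between groups was not tested. Ifi203 and Mndal were identical in 89.3% of 261 alignment columns, gaps included, and Ifi211 and Mndal in 54.3% of 276. Of the 12 family genes with a promoter in the table, 9 held the ISRE core and 1 held the gamma-activated site core, against 3.99% and 9.55% of all 27025 genes.

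The order of the 10 genes by level also changed between groups. In WT saline Irf7 was the highest, followed by Mavs, Irf3, Trex1, Samhd1, Ifi204, Tbk1, Sting1, Ikbke and Cgas, where Trex1 and Samhd1 overlapped and so did Ikbke and Cgas. In WT DOX, Ifi204 and Samhd1 ranked next after Irf7, and Trex1 and Mavs overlapped. In Sting-/- DOX, Irf3 ranked next after Irf7, Ifi204 overlapped Mavs, and Sting1 was lowest. Within WT DOX, library 1 was lowest for 7 of the 10 genes and library 2 highest for 6.

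Genes with the nearest pattern over the 9 libraries were found from the Euclidean distance between centred log2(FPKM + 1) profiles. Nearest to Cgas were Snrpe (distance 0.26), Eif6 (0.28) and Fen1 (0.32), and nearest to Irf7 were Lilra6 (0.23), Esd (0.29) and Oasl1 (0.30). Cgas averaged 0.693, 2.30 and 2.48 FPKM in WT saline, WT DOX and Sting-/- DOX, and Snrpe 51.4, 98.2 and 98.2. The added 1 FPKM shrinks the change of Cgas, so its neighbours do not share its fold change. Lilra6 averaged 0.353, 2.25 and 0.447 FPKM in WT saline, WT DOX and Sting-/- DOX, so its nearness rests on the added 1 FPKM and on the WT DOX group. Nearest to Ifi204 were Fhl1 (0.42), Nppb (0.51) and Klra2 (0.59), and nearest to Trex1 were Cct6a (0.23), Hars (0.24) and Stat3 (0.24).

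**Figure D4:**
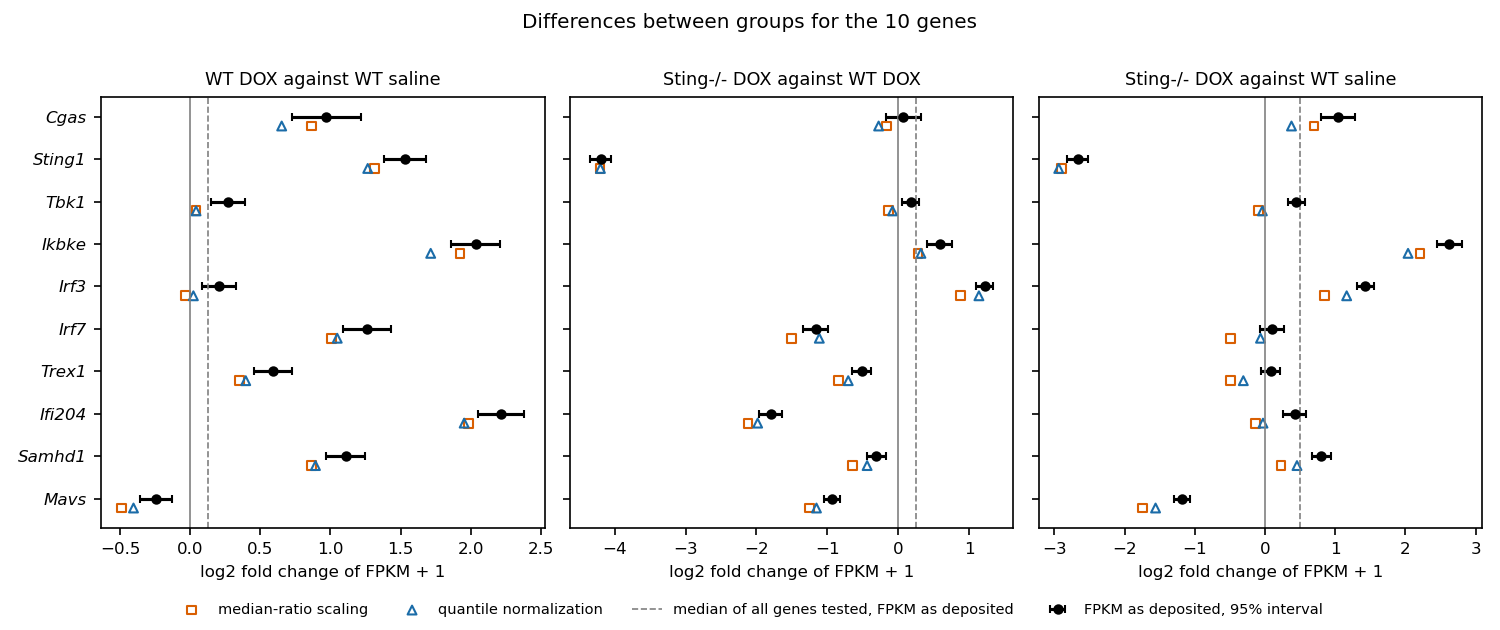
Log2(FPKM + 1) differences of the 10 genes in the 3 comparisons, with the limma 95% interval as error bars and the median of all genes tested as a dashed line. All genes except Ikbke, Irf3 and Mavs are above the line in WT DOX against saline and below it in Sting-/- DOX against WT DOX. Cgas and Tbk1 are above 0 in the latter comparison as deposited.

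Other genes of the pathway were described by 7 lists, with 97 genes tested. These lists were also chosen with earlier results of these data known. In WT DOX against saline, 71 of the 97 rose and 6 fell (median 0.40), and in Sting-/- DOX against WT DOX, 42 rose and 37 fell (median 0.00), beside the shares of all genes given above. Because 2 scalings moved the median of all genes from 0.13 to -0.09 and -0.10 in the first comparison and from 0.25 to -0.05 and 0.02 in the second, the counts under median-ratio scaling and quantile normalization are given with each list. The shares of all genes given above are for FPKM as deposited and do not serve for those counts. Of all genes called, the part higher went from 67.8% to 40.9% and 39.2% in the first comparison. In the second it went from 64.6% to 46.3% and 51.4%.

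The 13 target genes of the pathway measured here were mostly higher in WT DOX, with 12 rising and none falling (11 and 0 under both scalings). The list also named Ifnb1, Ifna4 and Mx1, which were not among the genes listed for the libraries. The type I interferon genes Ifnb1 and Ifna4 could therefore not be read. Ccl2, a monocyte chemoattractant, was at 4.55 FPKM on average in saline, 132 in WT DOX and 11.8 in Sting-/- DOX. In Sting-/- DOX against WT DOX, 8 fell, among them Ccl2, Ifit1 and Ifit3, and 2 rose, Rsad2 and Cxcl9 (median -1.0; 1 higher and 10 lower after median-ratio scaling, and 1 and 9 after quantile normalization). The log2 difference was -3.37 for Ccl2, -2.40 for Ifit1 and 0.73 for Rsad2, an antiviral enzyme, and the call of Cxcl9 (0.41) was lost under both scalings.

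Of the 16 other DNA sensors, 12 rose and 1 fell in WT DOX (9 and 4, then 10 and 3), and 6 rose and 7 fell in Sting-/- DOX against WT DOX (4 and 9, then 5 and 9). The list includes Aim2, Ifi203, Ifi205, Ifi208, Ifi209, Ifi211 and Mndal. These are also counted in the PYHIN family above, so the counts of the list and of the family are not separate. Tlr9, at 0.50 FPKM on average in saline, 2.13 in WT DOX and 0.457 in Sting-/- DOX, passed the filter on low values through WT DOX. Its place in these counts is therefore no support. Zbp1, a sensor of Z-form nucleic acid, was at 10.8 FPKM in saline, 64.3 in WT DOX and 13.9 in Sting-/- DOX. Ddx41, a helicase sensor, rose by 0.81 between the doxorubicin groups, and Prkdc fell in WT DOX from 1.97 to 1.59 FPKM (-0.20, adjusted p = 0.0345, limma).

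All 12 RNA sensors rose in WT DOX (10 under both scalings), and 3 rose and 6 fell in Sting-/- DOX against WT DOX (2 and 7 under both). Oas3, which makes 2'-5' oligoadenylate, was at 0.90 FPKM in saline, 5.91 in WT DOX and 1.02 in Sting-/- DOX. It passed the filter on low values through WT DOX, so its place in these counts is no support. Oas2 went the other way between the doxorubicin groups, from 19.8 to 33.8 FPKM (0.75).

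The 13 nucleases and other genes that damp the sensors had 11 rising and 0 falling in WT DOX (6 and 1, then 5 and 1) and 9 rising and 3 falling in Sting-/- DOX (7 and 4, then 7 and 2). Enpp1, which hydrolyses extracellular cGAMP, was at 1.31, 3.78 and 16.2 FPKM in WT saline, WT DOX and Sting-/- DOX. Banf1, which shields DNA from cGAS, rose from 72.5 to 106 FPKM in WT DOX. Parp1 was lower in Sting-/- DOX, at 9.82 against 18.5 FPKM.

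Of the 21 genes of STING traffic and regulation measured, 8 rose and 4 fell in WT DOX (6 and 10, then 6 and 8), and 9 rose and 8 fell in Sting-/- DOX (6 and 12, then 7 and 10). Stim1, a calcium sensor that retains STING on the endoplasmic reticulum, was at 5.63, 4.65 and 13.8 FPKM, and Usp13, a deubiquitinase that acts on STING, at 65.6, 52.9 and 9.94 FPKM in the same order of groups. The kinase adaptors had 8 rising and 1 falling in WT DOX (3 and 2, then 3 and 1) and 5 and 5 in Sting-/- DOX (3 and 8, then 3 and 7). Among them Tbkbp1, a TBK1-binding protein, was at 8.49 FPKM in WT DOX and 27.6 in Sting-/- DOX, while Optn fell from 27.3 to 11.6 FPKM. The NF-kB arm had 8 rising and 0 falling in both comparisons (5 and 2, then 6 and 2 in the first, and 7 and 2 under both scalings in the second). Relb, a subunit of the alternative NF-kB pathway, was at 5.55, 8.07 and 22.9 FPKM in WT saline, WT DOX and Sting-/- DOX.

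**Figure D5:**
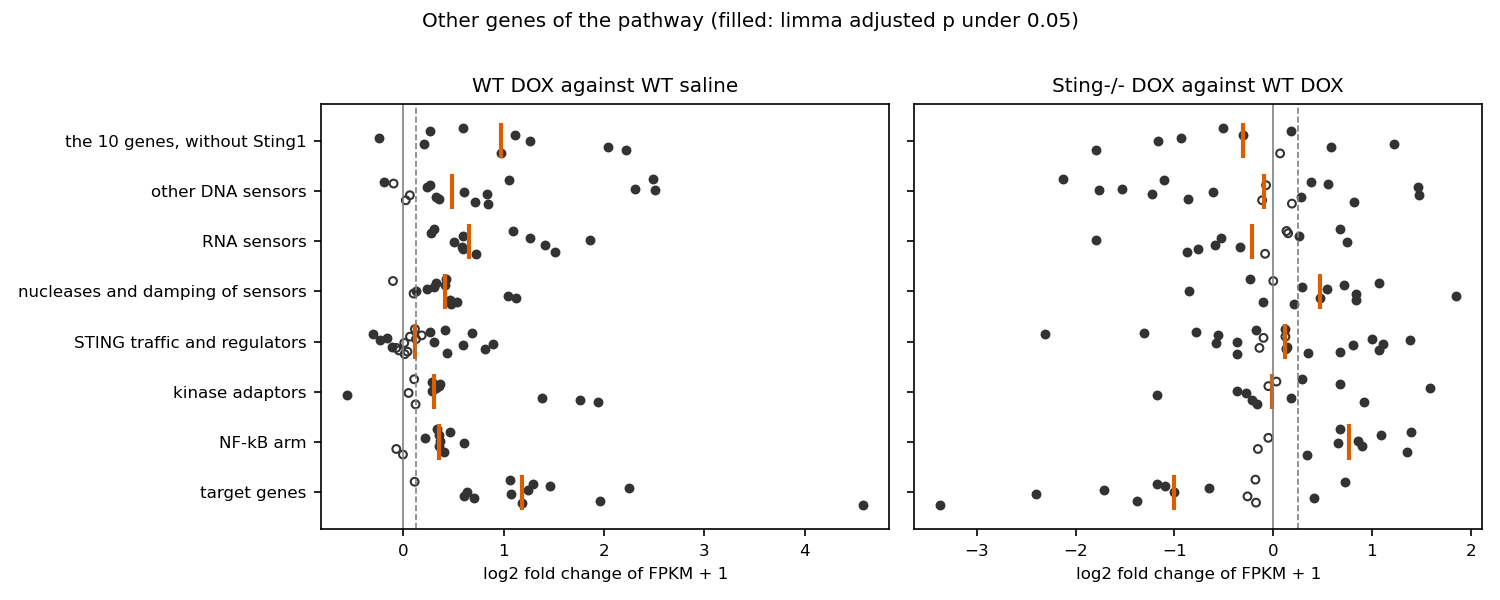
Log2(FPKM + 1) differences of the genes tested in each list for WT DOX against WT saline and Sting-/- DOX against WT DOX; filled points have an adjusted p under 0.05, the bar is the median of the list, and the dashed line is the median of all genes tested. Sting1 is left out of the row of the 10 genes, and the target genes lie mostly above the line in the first comparison and below it in the second.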

How the data were processed

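Heart RNA was measured in 3 libraries of each of the 3 groups, which the sample titles name together with replicate numbers. QIAGEN (RNA extraction) and MGI (library) kits were used, per the labels' protocols. The authors deposited 1 table per library with FPKM values to 2 decimals; the submitters' processing notes name HISAT2 2.0.4, Bowtie2 2.2.5, RSEM 1.2.12 and GRCm39, with no role or order. FPKM keeps no counts, so no count model was used. Gene IDs were matched to symbols through RefSeq (GRCm38.p6), 16825 of 16873, and promoter sequences are from the same source; protein sequences and a GRCm39 genome were not used here.

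The log2(FPKM + 1) values entered limma 3.58.1 (R 4.3.3, trended prior), 1 fit over the 9 libraries with 6 residual degrees of freedom, on genes averaging 1 FPKM or more, two-sided, Benjamini-Hochberg, threshold 0.05. The members and lists were chosen with earlier results of these data known. Named genes were the 10 members, up to 3 genes per list and direction with the largest passing difference in WT DOX against WT saline or Sting-/- DOX against WT DOX, and the 3 genes nearest in pattern to Cgas, Irf7, Ifi204 and Trex1; the other PYHIN genes, Atrip and Bcl2l12 were chosen after values were seen. With 3 libraries a group, 0.1 is the smallest p of an exact permutation test, reached by 10, 9 and 8 members in the 3 comparisons. Alternatives were pseudocount 0.1, no filter, median-ratio, quantile and TPM scaling, a 2-group fit, a replicate block and each library left out. Approximate depths come from steps in the low values of 1038 single-transcript genes. Of the 136 to 216 values used per library, 65.7% to 74.0% were within 0.1 reads of a whole number. With shuffled lengths the share was 16.2% to 24.2%, taken at the depth already chosen for the true lengths, so part of that gap is built in. No counts were recovered, and fragment numbers are approximate. The fit was tested on simulated data.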

Additional observations from a re-analysis of the deposited data

How the results depend on the processing

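Of 480 values of the 10 genes under the alternatives, 466 kept their side of the threshold and, where called, their direction, and all 14 that did not came from median-ratio scaling or quantile normalization. Those 2 scalings supply a small part of the 480 values, so the share that changed is much larger within them. In WT DOX against WT saline, Tbk1 was 0.041 under both scalings and Irf3 was 0.022 with quantile normalization, no longer passing, and Irf3 was -0.035 with median-ratio scaling. In Sting-/- DOX against WT DOX, quantile normalization gave Tbk1 -0.079 and Cgas -0.28, and median-ratio scaling gave Tbk1 -0.14. For Sting-/- DOX against WT saline, median-ratio scaling gave Tbk1 -0.095, Irf7 -0.50, Trex1 -0.49 and Ifi204 -0.13, and quantile normalization gave Tbk1 -0.038, Trex1 -0.31 and Ifi204 -0.029; 4 members were called lower with median-ratio scaling against 2 as deposited. The cause was not tested. Leaving out each library in turn changed no call of a member. The labels state no pairing by replicate number. In their deviations from the group mean, same-numbered libraries correlated at -0.032 to 0.104 over 9 pairs, and 2 of 9 were best matched by their own number. Between WT saline and WT DOX the same-numbered values were 0.040, 0.104 and 0.020. Correlations this low cannot decide whether libraries were paired. With the replicate block, 8247, 10449 and 11104 genes were called (8331, 10468 and 11097 without it), and no member's call changed. The low level of Cgas and Ikbke in saline, 24 to 43 and 24 to 30 fragments a library, limits the precision of their fold changes.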
